A study of Homo sapiens with 9 samples.

Results

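AML1-ETO (AE, also called RUNX1-RUNX1T1) is the fusion protein made by the t(8;21) translocation, and its knockdown was compared with a control shRNA in Kasumi-1, an established line of myeloid leukaemia blasts with this translocation. The members are the 3 libraries labelled as AE knockdown and the 3 labelled as control shRNA, 6 of the 9 libraries in the series, and every gene that passed a filter on low counts was tested. Lentiviruses carrying the shRNAs were left on the cells for 48 h; the cells were then kept in 1 µg/mL puromycin for another 48 h and taken for RNA on day 4, so the controls carry a virus and the selection too. The other 3 libraries carry shRNAs against LYL1, a transcription factor of blood progenitors. They enter the filter, the scaling and the estimate of spread. Their levels are read only where a change is set against a different knockdown in the same cells. The labels do not say whether AE numbers 1 to 3 are different shRNAs or repeats of 1, or whether the libraries came from separate cultures. P-values therefore reflect only how the 9 libraries spread.

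AE joins the DNA-binding part of RUNX1 (AML1), a transcription factor needed for blood stem cells and for myeloid maturation, to nearly all of RUNX1T1 (ETO), which binds corepressors and histone deacetylases. The fusion sits at RUNX sites, is known both for holding down genes of granulocyte and monocyte maturation and for keeping a progenitor programme on, and leaves blasts that are arrested as immature myeloid cells. It works in a complex with CBFB, the partner subunit of RUNX1, and with other factors of blood progenitors.

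Library totals ranged from 20103275 to 28039518 counts over the 9 libraries. Levels are CPM, counts per 1000000 counts of a library, scaled by TMM, which corrects for differences in composition between libraries. A gene was called when its edgeR quasi-likelihood p, adjusted over all 14741 genes tested, was below 0.05. Counts varied little between the controls (biological coefficient of variation 7.55%) and more between the AE knockdown libraries (31.4%). Between the LYL1 knockdown libraries it was 20.9%, and the test shares an estimate of spread over these unequal groups. With bulk RNA, fewer cells of a type and less RNA per cell cannot be told apart.

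RUNX1T1 and RUNX1 were read first, since they check the labels. RUNX1T1 was at 215, 223 and 211 CPM in control libraries and at 114, 136 and 87.6 CPM with AE knockdown. RUNX1 was at 390.4, 382 and 367 CPM in control libraries and at 241, 232 and 199 CPM with AE knockdown. Both genes were lower in every AE knockdown library than in every control, and replicate 3 was lowest for both. RUNX1T1 was left at 40.5% to 63.0% of the control mean and RUNX1 at 52.3% to 63.5%. The edgeR log2 fold changes were -0.94 (SE 0.18, adjusted p = 0.00778) and -0.76 (SE 0.17, adjusted p = 0.0119), and the RUNX1 call was lost without control replicate 1 or 2 (adjusted p = 0.0513 and 0.0519). Reads of either gene can come from the fusion or from a normal allele, which these counts do not separate. In the LYL1 knockdown libraries RUNX1T1 ranged from 183 to 261 CPM and RUNX1 from 357 to 535 CPM, and both were lower with AE than with LYL1 knockdown (log2 difference -0.93 for each, edgeR adjusted p = 0.00803 and 0.00622).

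The myeloblast markers read were MPO, KIT, CD34, CD38, CD33 and ANPEP, and their levels in the controls differed widely. MPO, the peroxidase of primary granules, was at 17545 to 20448 CPM in control libraries and at 32465, 16217 and 30526 CPM with AE knockdown, and KIT, the stem cell factor receptor, at 1099 to 1156 CPM and at 1269.9, 1132 and 434 CPM. Neither was called, and in both the AE libraries reached above and below the controls. CD34, a surface protein of progenitors, was at 10.5 to 12.5 CPM in control libraries and at 1.14, 19.7 and 4.18 CPM with AE knockdown, again with no call (edgeR adjusted p = 0.69). CD38 was low in control libraries, at 2.01 to 2.75 CPM. It was at 21.3, 2.36 and 7.21 CPM with AE knockdown and was not called (edgeR adjusted p = 0.0774). CD33 and ANPEP (CD13), surface proteins of the myeloid lineage, were higher in every AE knockdown library. CD33 was at 33.6, 32.2 and 27.8 CPM in control libraries and at 117, 85.9 and 173 CPM (log2 change 2.01, SE 0.22, edgeR adjusted p = 0.00103). ANPEP was at 296, 288 and 244 CPM and at 809, 493 and 1024 CPM (1.49, SE 0.30, edgeR adjusted p = 0.00853).

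**Figure D1:**
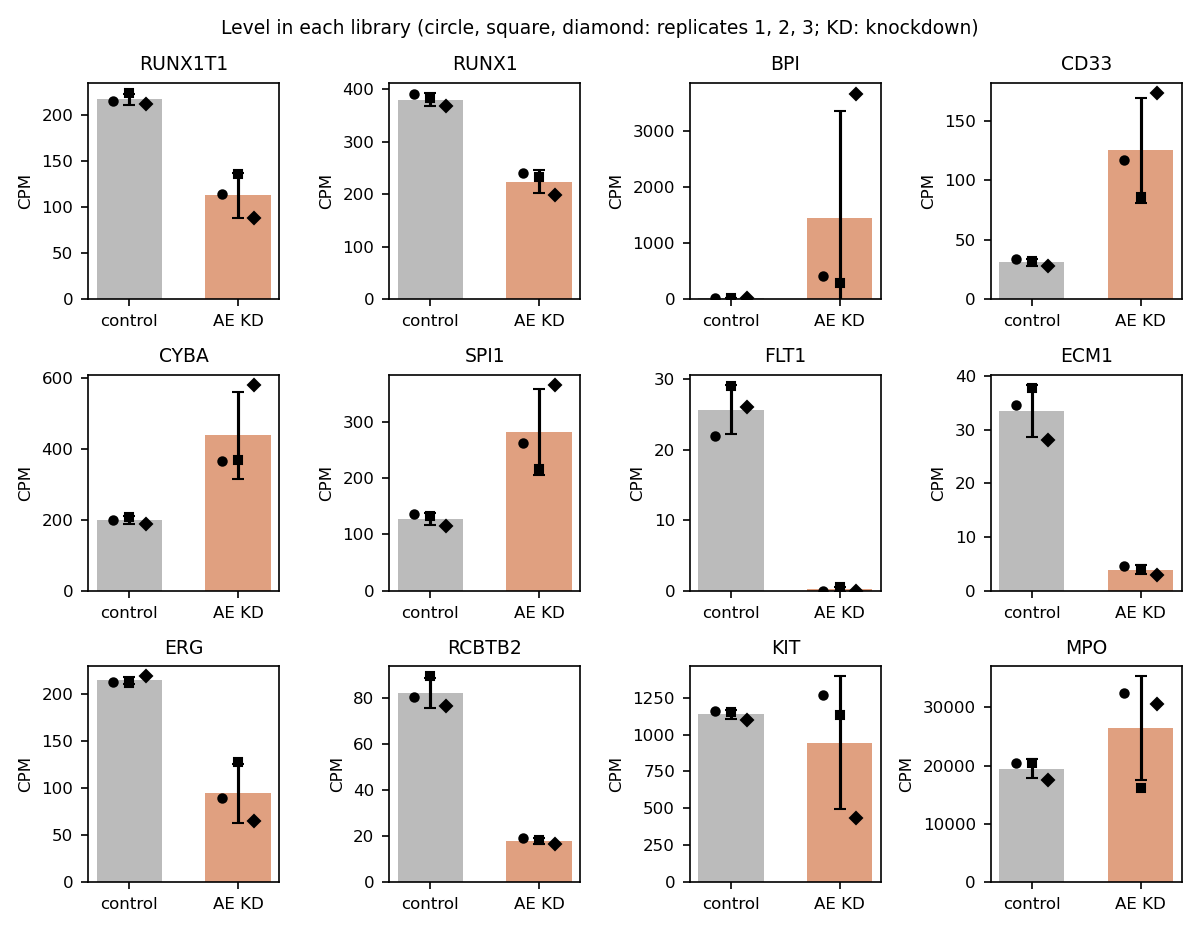
Level of 12 genes in CPM (vertical axes, linear, from 0) in the control and AE knockdown (KD) libraries. Bars are means, error bars the SD of 3 libraries, and points the single libraries. RUNX1T1, RUNX1, FLT1, ECM1, ERG and RCBTB2 lie lower in all 3 AE libraries than in all 3 controls, BPI, CD33, CYBA and SPI1 lie higher, and KIT and MPO overlap.

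Of the 14741 genes tested, 21.8% were called, 1684 (11.4%) higher and 1530 (10.4%) lower with AE knockdown. At an unadjusted p below 0.05 there were 2964 higher and 2524 lower. The control and AE libraries did not overlap for 6667 genes (45.2%). Of the called genes, 828 rose and 612 fell at least 2-fold, 99 rose and 66 fell at least 8-fold, and 44 rose and 14 fell at least 16-fold. The called set depends on the controls: without control replicate 1, 2 or 3 there were 494, 423 and 445 genes called higher and 602, 531 and 605 called lower. In all 6 fits that left out 1 control or AE library, 350 genes stayed called higher and 463 stayed called lower. Calls against control below that are not followed by a remark held in each of these 6 fits. This does not cover calls against LYL1 knockdown.

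**Figure D2:**
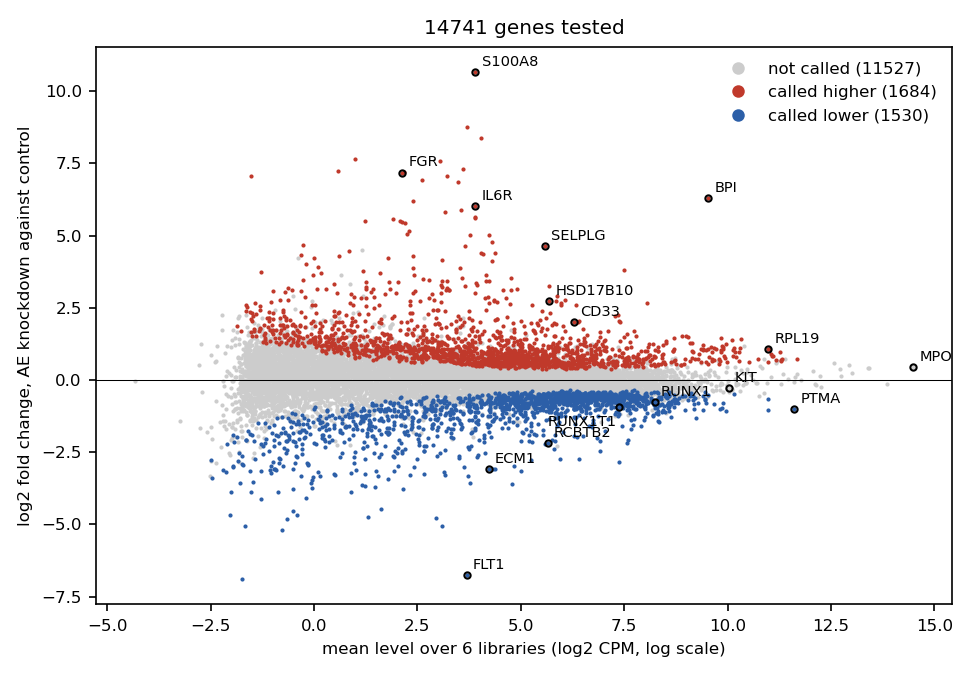
Log2 fold change with AE knockdown against control (vertical axis) by mean level over the 6 libraries in log2 CPM (horizontal axis), 1 point a gene. The 1684 genes called higher and 1530 called lower are coloured, and outlined points mark the genes with a label, from S100A8 at the top to FLT1 at the bottom.

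Of the 10 rises with the smallest p, the first was HSD17B10. This gene, for a mitochondrial dehydrogenase that is also part of mitochondrial tRNA processing, was at 12.2, 13.5 and 14.6 CPM in control libraries and at 86.6, 96.5 and 85.4 CPM (6.67-fold, log2 SE 0.14, edgeR adjusted p = 7.28e-06). Each AE library was thus far above each control, with little spread. The LYL1 knockdown libraries, at 53.8 to 62.1 CPM, were also above all controls, and the difference between the knockdowns was 0.65 in log2 (edgeR adjusted p = 0.0085). VAMP8, a membrane fusion protein of secretory granules and lysosomes, was at 179, 174 and 164 CPM and at 414, 361 and 462 CPM (2.39-fold, adjusted p = 0.00103). TBC1D10C, a restrainer of RAS and calcineurin in lymphocytes, rose 6.04-fold, and CYTH4, an exchange factor for ARF GTPases found mainly in blood cells, 8.63-fold. COMMD6, a small protein of the COMMD family, was held closely in both groups, at 36.5 to 36.6 CPM in the controls and 73.5 to 79.6 CPM with AE knockdown. CERCAM, named as an adhesion molecule of brain endothelium, rose 2.92-fold, MTURN, a regulator of progenitor differentiation, 4.18-fold and MBP, the myelin basic protein gene with a second product in blood cells, 3.77-fold. NME2P1, a processed copy of the kinase gene NME2 whose reads may be shared with it, rose 2.59-fold. With CD33 these made up the 10, with adjusted p of at most 0.00103.

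Several of the 10 falls with the smallest p, FLT1, DUSP27, VWA1 and JCAD among them, were larger in fold than any of these rises. DUSP27, an inactive relative of dual-specificity phosphatases, was at 14.4, 17.2 and 18.3 CPM in control libraries and at 0.572, 0.774 and 0.0481 CPM (33.2-fold, edgeR adjusted p = 0.000197). RCBTB2, a protein with RCC1 repeats and a BTB domain, was at 80.3, 89.4 and 76.7 CPM and at 19.3, 18.4 and 16.7 CPM (4.53-fold, adjusted p = 0.000321). The AE libraries were close together for RCBTB2, and for DUSP27 replicate 3 was well below the others. PSIP1, the chromatin-bound coactivator LEDGF, was at 317, 329 and 438 CPM and at 132, 113 and 114 CPM (3.02-fold, adjusted p = 0.000717). LRRC8C, a subunit of the volume-regulated anion channel, fell 3.05-fold, and VWA1, a matrix protein, 12.8-fold. SENCR, a noncoding RNA of vascular cells, fell 6.30-fold; it lies antisense to FLI1, and without a stated strand setting the reads of the pair cannot be told apart. RASGRF1, an exchange factor that activates RAS, had 91 counts over the 3 controls and 3 over the 3 AE libraries, a ratio of 31.2 (95% exact interval 10.3 to 154, counting error only). The ratio was 59.6 (10.4 to 2380) without AE knockdown replicate 1 and 22.8 (7.55 to 112) without replicate 3. FLT1, ECM1 and JCAD, the others of the 10, are described with their groups.

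RUNX proteins, and so the fusion, bind TGTGGT, and promoter windows were searched for it and its reverse complement ACCACA. The windows run from 250 bases before to 50 after each start in RefSeq (GRCh38.p14), and 9830 of the 14741 tested genes had at least 1, with 14195 windows in all. The 250 bases before the start are shown for the 4 largest rises and 3 largest falls among the named genes with a match and a mean of at least 4 CPM, and capitals mark the matches.
FGR (chr1:27626598-27626847, minus strand): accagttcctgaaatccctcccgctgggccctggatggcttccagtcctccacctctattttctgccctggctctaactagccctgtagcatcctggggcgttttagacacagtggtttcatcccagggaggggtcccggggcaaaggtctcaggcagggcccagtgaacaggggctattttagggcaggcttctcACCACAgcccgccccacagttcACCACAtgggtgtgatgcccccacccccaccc
CLEC12A (chr12:9971159-9971408, plus strand): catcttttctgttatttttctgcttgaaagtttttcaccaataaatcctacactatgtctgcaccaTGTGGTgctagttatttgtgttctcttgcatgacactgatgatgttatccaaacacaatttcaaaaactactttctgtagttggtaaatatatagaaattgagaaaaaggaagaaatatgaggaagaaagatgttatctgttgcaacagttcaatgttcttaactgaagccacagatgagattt
PTAFR (chr1:28176691-28176940, minus strand): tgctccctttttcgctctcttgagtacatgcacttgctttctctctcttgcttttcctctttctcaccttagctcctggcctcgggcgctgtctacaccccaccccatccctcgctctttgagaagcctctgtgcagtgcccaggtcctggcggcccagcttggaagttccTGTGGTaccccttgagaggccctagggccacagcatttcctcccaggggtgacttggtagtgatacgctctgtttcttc
DHRS9 (chr2:169072325-169072574, plus strand): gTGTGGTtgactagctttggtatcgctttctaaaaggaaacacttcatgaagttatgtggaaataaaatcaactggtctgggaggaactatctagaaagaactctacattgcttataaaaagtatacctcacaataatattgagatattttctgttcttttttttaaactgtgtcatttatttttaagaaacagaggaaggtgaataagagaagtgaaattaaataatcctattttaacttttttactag
JCAD (chr10:30115495-30115744, minus strand): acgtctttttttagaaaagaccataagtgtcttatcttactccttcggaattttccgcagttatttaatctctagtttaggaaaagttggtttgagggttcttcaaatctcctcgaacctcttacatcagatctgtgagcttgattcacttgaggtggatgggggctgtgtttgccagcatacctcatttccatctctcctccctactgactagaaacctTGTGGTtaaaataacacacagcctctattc
HK1 (chr10:69278246-69278495, plus strand): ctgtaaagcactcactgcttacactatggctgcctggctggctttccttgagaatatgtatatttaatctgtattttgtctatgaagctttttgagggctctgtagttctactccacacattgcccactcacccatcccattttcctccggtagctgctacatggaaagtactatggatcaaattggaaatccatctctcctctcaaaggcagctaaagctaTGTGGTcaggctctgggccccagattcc
GYPC (chr2:126655908-126656157, plus strand): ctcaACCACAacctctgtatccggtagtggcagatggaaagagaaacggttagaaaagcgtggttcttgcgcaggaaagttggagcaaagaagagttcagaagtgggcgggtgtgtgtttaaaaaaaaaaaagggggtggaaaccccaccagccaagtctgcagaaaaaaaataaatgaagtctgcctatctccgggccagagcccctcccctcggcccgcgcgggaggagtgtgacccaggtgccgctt
FGR, a SRC-family kinase of myeloid cells, has 2 matches, which begin at -54 and -32 from the start, in 1 of its 2 windows. It was at 0.0404, 0.0753 and 0.0420 CPM in the controls, which is 4 counts in all, and at 3.00, 1.16 and 21.9 CPM with AE knockdown (log2 change 7.18, SE 1.25, edgeR adjusted p = 0.00343). CLEC12A, an inhibitory lectin receptor of myeloid cells, was at 0.0404, 0.151 and 0.210 CPM and at 5.65, 3.06 and 46.9 CPM (7.05, SE 1.27, adjusted p = 0.00625). Both went from near the floor of detection to a clear signal in all 3 AE libraries, with replicate 3 several times above the other two. PTAFR, the receptor of platelet-activating factor, was at 0.688, 0.904 and 1.30 CPM and at 4.97, 9.54 and 57.9 CPM (4.63, SE 0.93, adjusted p = 0.00956). DHRS9, a retinol and steroid dehydrogenase, was at 1.74, 2.22 and 1.64 CPM and at 4.82, 18.4 and 42.8 CPM (3.54, SE 0.84, adjusted p = 0.017). PTAFR has its match in 1 of 2 windows and DHRS9 in 1 of 4. The PTAFR call was lost without control replicate 1 or 2 (adjusted p = 0.0506 and 0.0525) and the DHRS9 call without any 1 control (0.0688 to 0.0728). With AE knockdown replicate 3 left out, FGR, CLEC12A, PTAFR and DHRS9 had log2 changes of 5.15, 4.97, 2.90 and 2.62.

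Of the falls with a match, JCAD, a protein of endothelial junctions, was at 25.9, 25.4 and 24.3 CPM in control libraries and at 2.14, 3.34 and 0.721 CPM with AE knockdown (log2 change -3.56, SE 0.34, edgeR adjusted p = 0.000717). HK1, the hexokinase that opens glycolysis, was at 294, 293 and 329 CPM and at 126, 157 and 79.9 CPM (-1.34, SE 0.25, adjusted p = 0.00681). Only 1 of the 7 HK1 windows has the match, and 1 of the 2 JCAD windows. GYPC, a glycophorin of the red cell membrane, was at 433, 449 and 358 CPM and at 211, 219 and 93.4 CPM (-1.24, SE 0.34, adjusted p = 0.0267, lost without any 1 control at 0.0619 to 0.0861). All 3 were lowest in replicate 3.

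TGTGGT or ACCACA was in 10.2% of the windows of tested genes and in 13.1% of all 35116 windows in the table. It was in 13.5% of windows of genes called higher, 16% of those that rose at least 2-fold and 21.5% (48 of 223, from 145 genes) of those that rose at least 4-fold. For genes called lower the shares were 10%, 10% at 2-fold and 9.47% at 4-fold. The shares of other motifs also differed between these sets, some of them alike for large rises and large falls. The AP-1 motif TGANTCA was in 4.87% of windows of tested genes and 9.42% of those of genes up at least 4-fold, the GATA motif AGATAA in 5.58% and 8.52%, and the SP1 motif GGGCGG in 65.9% and 46.2%. The ETS motif GGAAGT was in 26.7% of windows of tested genes, 32.2% of those of genes called higher and 19.7% of those of genes called lower. Of the rest of the 10 motifs searched, CAGCTG was in 17.2% and 25.6%, CACGTG in 9.51% and 4.04%, the RUNX variant TGCGGT in 9.88% and 13.5%, CCAAT in 34.6% and 25.6% and TATAAA in 6.24% and 12.6%. In windows of genes down at least 4-fold, TATAAA was in 13.2%, CCAAT in 25.3%, CACGTG in 6.32%, TGCGGT in 6.84%, CAGCTG in 19.5%, TGANTCA in 7.37% and AGATAA in 6.84%. All were searched on both strands, and no motif contains another. Median GC content was 64.7% in windows of tested genes and 59.7% in those of genes up at least 4-fold, with a median of 25 and 9 CpG. The part of base composition in the motif shares was not tested, and a match is not evidence of binding.

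**Figure D3:**
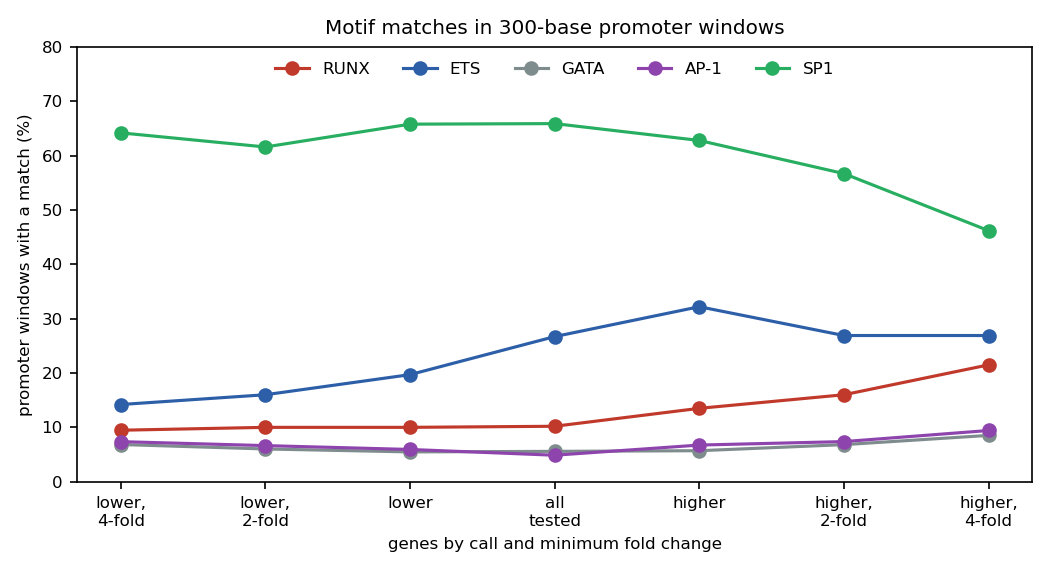
Share of 300-base promoter windows with a match (vertical axis, %) for 5 motifs, by the call and minimum fold change of their genes (horizontal axis). The RUNX share is 9.47% in genes down at least 4-fold and 21.5% in genes up at least 4-fold, while that of SP1 is 64.2% and 46.2%.

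Gene lists were drawn up by function. Members that failed the low-count filter have no test, and a gene near 0 in the controls could pass only by its level in other libraries: of the 1684 genes called higher, 183 had fewer than 3 controls at the level the filter asks for, and of the 1530 called lower 185 had fewer than 3 such AE libraries. List counts and medians are therefore descriptions of the members tested, set beside 11.4% called higher, 10.4% called lower and a median log2 fold change of 0.05 over all genes tested.

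Of 19 genes listed under primary granules 14 were tested, and 9 rose and none fell (median log2 fold change 2.34). The list also holds genes of eosinophil granules, RNASE3 and PRG3 among them, so its counts are not of primary granules alone. For 2 of the 9 rises, fewer than 3 controls reached the filter's level. RNASE3, the eosinophil cationic ribonuclease, was at 0.485, 0.113 and 0.336 CPM in control libraries and at 8.97, 2.92 and 41.2 CPM (log2 change 5.81, SE 1.04, edgeR adjusted p = 0.00683). CST7, a cystatin that controls granule proteases, was at 2.02, 2.00 and 1.59 CPM and at 65.5, 4.93 and 49.2 CPM (4.41, SE 0.77, adjusted p = 0.00622). BPI, a bactericidal protein, rose most in level, from 16.6 to 20.3 CPM in the controls to 422, 299 and 3642 CPM (log2 change 6.29). Granule proteins that the line already made in quantity were not called: PRTN3, a protease, was at 2957 to 3759.8 CPM and at 5549, 2032 and 2933 CPM, and AZU1, a protease relative without that activity, at 635 to 697 CPM and at 1622, 409 and 1160.3 CPM. MPO, PRTN3 and AZU1 shared an order of libraries in which replicate 2 was lowest and below the controls. Without AE knockdown replicate 3 the log2 changes of BPI and RNASE3 were 4.26 and 4.24. Without any 1 control the list had 3 calls.

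Of 26 later granule and granulocyte maturation genes 10 were tested, and 6 rose and 1 fell (median 1.54). For 2 of the 6 rises, fewer than 3 controls reached the filter's level. CEACAM6, a surface protein of granulocytes, was at 3.24, 2.26 and 2.56 CPM and at 9.97, 25.2 and 64.2 CPM (3.62, SE 0.61, edgeR adjusted p = 0.00564). FPR2, a formyl peptide receptor, went the other way, from 15.6, 14.4 and 17.5 CPM to 3.86, 6.55 and 1.59 CPM (-1.96, SE 0.41, adjusted p = 0.0104). S100A8, a calcium-binding protein of neutrophils and monocytes, had 0, 1 and 0 counts in the controls and 36, 83 and 1769 with AE knockdown, a ratio of 1840 (95% exact interval 329 to 72600, counting error only; edgeR adjusted p = 0.0109, 0.0743 without control replicate 2, and 0.0757 in limma-voom). DESeq2 gave it no adjusted p. Most of its counts are in AE knockdown replicate 3: without that library the ratio was 159 (27.9 to 6310), and without replicate 1 or 2 it was 2830 and 2780. The log2 change of CEACAM6 without AE knockdown replicate 3 was 2.70. The list's calls without control replicate 1, 2 or 3 were 3, 2 and 3 higher and 1, 1 and 1 lower. Of 22 monocyte and macrophage genes only 5 were tested, since 10 had no count in any of the 6 libraries, and IRF8 and CSF1R rose. IRF8, a transcription factor of monocytes, was at 0.0839 to 0.188 CPM and at 1.5, 0.598 and 4.13 CPM (3.71, adjusted p = 0.00981, and 0.0506 without control replicate 3), with a log2 change of 2.79 without AE knockdown replicate 3. Without control replicate 2 or 3 the list had 1 rise.

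Of 7 subunits of the phagocyte NADPH oxidase, the enzyme that makes superoxide, 6 were tested and 3 rose. CYBA (p22phox), the membrane subunit, was at 201, 209.5 and 188 CPM and at 367, 370.4 and 582 CPM (log2 change 1.14, SE 0.18, edgeR adjusted p = 0.00399). Replicates 1 and 2 were close, with replicate 3 above them, and all 3 lay above the controls. The list had 3, 2 and 2 rises without control replicate 1, 2 or 3. RAC2, the GTPase that switches the oxidase on, rose 1.76-fold (adjusted p = 0.0141, lost without control replicate 2 or 3 at 0.055 and 0.0689). RAC1, its relative in most cell types, was at 258 to 279 CPM and at 198, 264 and 139 CPM, with no call.

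Receptors that signal through ITAM adaptors, Fc receptors and lectins, with their kinases, showed 9 rises and no fall among 25 tested of 37 (median 1.00). LAT2, an adaptor below Fc receptors, was at 4.09, 3.77 and 4.87 CPM and at 37.1, 9.96 and 44.6 CPM (2.85, SE 0.51, edgeR adjusted p = 0.00659). The lectin receptor CLEC5A was already at 269 to 306 CPM in the controls and was at 254, 292 and 307 CPM with AE knockdown (log2 change 0.01). Of the 9 rises, 4 were in genes for which fewer than 3 controls reached the filter's level. Without control replicate 1, 2 or 3 there were 6, 5 and 6 rises.

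Signalling proteins of blood cells showed 17 rises and 1 fall among 31 tested of 32 (median 0.74). RASGRP2, an exchange factor that activates RAP1 in platelets and neutrophils, was at 69.3, 66.4 and 58.6 CPM and at 265, 142 and 218 CPM (1.69, SE 0.21, edgeR adjusted p = 0.00175). PTPN6 (SHP-1), the phosphatase that damps receptor signals, was at 92.4, 94.4 and 93.4 CPM and at 283, 213 and 297 CPM (1.5, SE 0.24, adjusted p = 0.00401). DOCK8, an exchange factor for CDC42, was the fall, at 170.2, 176 and 175 CPM and at 106, 97.7 and 88.4 CPM (-0.83, SE 0.12, adjusted p = 0.00283). For these 3 genes the groups did not overlap, and of the AE libraries replicate 2 was lowest for RASGRP2 and PTPN6. LAPTM5 and TNFAIP8L2, which restrain immune receptor signals, rose 14.2-fold (log2 change 2.89 without AE knockdown replicate 3) and 2.39-fold. Without control replicate 1, 2 or 3, 10, 8 and 8 of the list's genes were called higher.

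Of 22 leukocyte adhesion genes 10 rose and 3 fell (median 0.68). SELPLG, the selectin ligand PSGL-1, was at 3.11, 4.07 and 3.90 CPM and at 83.0, 27.5 and 165 CPM (4.63, SE 0.60, edgeR adjusted p = 0.00224). PSTPIP1, a cytoskeletal adaptor, rose 21.3-fold (adjusted p = 0.00552), and without AE knockdown replicate 3 SELPLG and PSTPIP1 had log2 changes of 3.88 and 2.95. ICAM1, a ligand of leukocyte integrins, was at 13.5, 16.7 and 12.8 CPM and at 1.97, 6.30 and 5.38 CPM (-1.66, SE 0.34, adjusted p = 0.00939), and was at 27.7 to 41.8 CPM in the LYL1 knockdown libraries. Without control replicate 1, 2 or 3 only 3, 2 and 2 adhesion genes were called higher. Of 33 actin and migration genes 14 rose and 2 fell (median 0.42), with 3, 2 and 2 rises without 1 control. MYO1F, a myosin of neutrophils, was at 54.6, 60.7 and 53 CPM and at 228, 135 and 445 CPM (2.26, SE 0.37, adjusted p = 0.00506), and TMSB4X, which binds actin monomers, at 695, 723 and 754 CPM and at 1184, 1137 and 1339 CPM (0.75, SE 0.15, adjusted p = 0.00786).

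Among 14 tested of 24 chemokines and chemoattractant receptors 7 rose and 2 fell (median 0.82), and the chemokines of 1 family went different ways. CXCL8 (interleukin 8) was at 1.29, 1.81 and 1.76 CPM and at 4.90, 3.73 and 5.82 CPM (1.56, SE 0.28, edgeR adjusted p = 0.006). CXCL3 was at 1.5, 1.36 and 0.797 CPM and at 0.179, 0.422 and 0.0961 CPM (-2.30, SE 0.49, adjusted p = 0.0105). Both are ligands of CXCR2 that draw in neutrophils, and CXCL2, a further one, also fell (3.01-fold, adjusted p = 0.0131, lost without control replicate 1 or 2 at 0.0558 and 0.0529). CXCR4, the receptor that keeps progenitors in the marrow, rose 7.09-fold (adjusted p = 0.0173, lost without any 1 control at 0.0677 to 0.0735). With AE knockdown replicate 3 left out, the log2 changes of CXCR4 and CXCL3 were 1.65 and -2.01, and without replicate 2 that of CXCL3 was -3.05. The list had 1, 1 and 2 rises without control replicate 1, 2 or 3.

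Receptors of growth factors and cytokines moved both ways, with 4 rises and 3 falls among 21 tested of 26 (median 0.08). IL6R was at 0.485, 0.414 and 0.420 CPM and at 19.1, 3.91 and 64.4 CPM (6.02, SE 1.01, edgeR adjusted p = 0.00542). CSF1R, the macrophage growth factor receptor, rose 9.72-fold (adjusted p = 0.00998, and 0.0512 without control replicate 2). IL2RG, the chain shared by several interleukin receptors, was at 213, 207 and 176 CPM and at 92.5, 67.2 and 72.3 CPM (-1.36, SE 0.17, adjusted p = 0.00195). CSF3R, the receptor of granulocyte colony-stimulating factor, stayed at 666 to 758 CPM against 675 to 807 CPM in the controls and was not called. Without AE knockdown replicate 3 the log2 changes of IL6R and CSF1R were 4.68 and 2.26. The list had 2, 1 and 2 rises and 2 falls without control replicate 1, 2 or 3.

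Of 28 tested transcription factors of the myeloid lineage 8 rose and 4 fell (median 0.17), and without control replicate 1, 2 or 3, 5, 5 and 4 rose and 1, 0 and 0 fell. SPI1 (PU.1) was at 136, 132 and 115 CPM and at 262, 216 and 365 CPM (1.14, SE 0.20, edgeR adjusted p = 0.00542). CEBPD was at 26.9, 26.8 and 26.2 CPM and at 64.3, 46.5 and 56.2 CPM (1.06, SE 0.19, adjusted p = 0.00564). CEBPE, which drives the formation of later granules, was at 67.8, 67.0 and 59.7 CPM and at 145, 196 and 461 CPM (2.04, SE 0.41, adjusted p = 0.00976). NFE2, a factor of red cell and platelet precursors also made in myeloid cells, was at 0.971, 1.17 and 1.17 CPM and at 25.4, 3.56 and 79.2 CPM (5.01, SE 0.93, adjusted p = 0.00755, and 0.0529 in limma-voom). GFI1, a repressor needed for granulocytes, was at 436 to 478 CPM and at 544, 375 and 438 CPM and was not called. With AE knockdown replicate 3 left out, the log2 changes of NFE2 and CEBPE were 3.69 and 1.38.

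Of 48 lysosomal genes 44 were tested, and 16 rose, none fell and 28 were not called (median 0.58). GLA, alpha-galactosidase, was at 50.3, 47.6 and 39.9 CPM and at 145, 80.6 and 135 CPM (1.39, SE 0.20, edgeR adjusted p = 0.00307). NPC2, which carries cholesterol out of lysosomes, was at 18.8, 18.0 and 17.4 CPM and at 45.6, 35.5 and 98.1 CPM (1.72, SE 0.31, adjusted p = 0.00629). PSAP, the precursor of the saposins, was at 503, 515 and 463 CPM and at 1130.4, 795 and 2083 CPM (1.44, SE 0.28, adjusted p = 0.00845). The summed level of the list was 4803 to 5246 CPM in the controls and 7167, 5404 and 10236 CPM with AE knockdown, so replicate 2 was only just above the controls. Leaving out control replicate 1, 2 or 3 left 5, 5 and 3 calls. Of 17 tested of 23 eicosanoid genes 5 rose and 1 fell, led by the phospholipase PLB1 (11.5-fold, adjusted p = 0.00814, log2 change 2.30 without AE knockdown replicate 3). There were 8 eicosanoid rises without AE knockdown replicate 1, 3 without replicate 3 and 1 without any 1 control. Of 22 heme and iron genes tested 7 rose and none fell (median 0.26), among them ALAS1, the first enzyme of heme synthesis (1.99-fold, adjusted p = 0.0212), with 4 rises without AE knockdown replicate 3 and none without any 1 control.

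Of 29 stem and progenitor genes 19 were tested, and 8 fell, none rose and 11 were not called (median log2 fold change -0.79), with 3, 2 and 4 falls without control replicate 1, 2 or 3. ERG, an ETS factor of stem cells and endothelium, was at 213, 212 and 219 CPM and at 90.2, 128 and 65.7 CPM (-1.18, SE 0.21, edgeR adjusted p = 0.00576). GATA2 was at 75.5, 76.1 and 65.1 CPM and at 31.6, 47.5 and 29.6 CPM (-0.99, SE 0.20, adjusted p = 0.00815). TAL1, an essential factor of blood stem cells, was at 1.78, 2.60 and 1.64 CPM and at 0.250, 0.774 and 0.0961 CPM (-2.33, SE 0.55, adjusted p = 0.0161, and 0.0683 without control replicate 2). In all 3, replicate 2 of the AE knockdown kept the highest level. MYB, a factor of dividing progenitors, was at 528 to 563 CPM and at 664, 419 and 683 CPM, and CDK6 at 705 to 747 CPM and at 718, 614 and 389 CPM, neither of them called. Without AE knockdown replicate 2 the log2 change of TAL1 was -3.42, and without replicate 3 it was -1.97.

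Of 33 genes best known from blood vessel lining cells 14 were tested, and 8 fell and none rose (median -1.06), with 6, 5 and 7 falls without control replicate 1, 2 or 3. For 4 of the 8 falls, fewer than 3 AE libraries reached the filter's level. FLT1, which binds the vascular growth factor VEGF, was at 22.0, 29 and 26.0 CPM in control libraries and at 0.0357, 0.563 and 0.0481 CPM (-6.76, SE 0.44, edgeR adjusted p = 5.82e-05). It was at 22.8 to 26.8 CPM in the LYL1 knockdown libraries. Over the 6 fits that left out 1 control or AE library, its log2 change ran from -9.12 (without AE knockdown replicate 2) to -6.23. Its levels in AE knockdown replicates 1 and 3 are worth about 1 count each. TIE1, a receptor tyrosine kinase, was at 2.87, 2.56 and 2.48 CPM and at 0.429, 0.387 and 0.433 CPM (-2.65, SE 0.30, adjusted p = 0.00116). MMRN1, a carrier protein of platelets and endothelium, had 57 counts over the controls and 3 over the AE libraries, a ratio of 19.5 (95% exact interval 6.35 to 97.5). The ratio was 37 (6.38 to 1490) without AE knockdown replicate 2 and 14.3 (4.64 to 71.2) without replicate 3. ENG (endoglin) was at 63.5 to 76.3 CPM and at 51.4, 56.3 and 19.9 CPM and missed the threshold (adjusted p = 0.0916).

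Extracellular matrix genes showed 10 falls and 1 rise among 21 tested of 39 (median -0.81). For 3 of the 10 falls, fewer than 3 AE libraries reached the filter's level. ECM1, a secreted matrix protein, was at 34.6, 37.7 and 28.1 CPM and at 4.72, 4.01 and 3.03 CPM (-3.08, SE 0.25, edgeR adjusted p = 0.000321). OLFML2A, an olfactomedin-like protein, was at 15, 17.7 and 11.7 CPM and at 0.536, 0.915 and 0.0481 CPM (-4.78, SE 0.54, adjusted p = 0.0012). SCUBE1 was at 58.0, 57.6 and 56.5 CPM and at 8.22, 9.33 and 1.54 CPM (-3.15, SE 0.45, adjusted p = 0.00327). All AE libraries were far below all controls for these genes. The log2 change of OLFML2A was -5.50 without AE knockdown replicate 2 and -4.36 without replicate 3. ADAMTS15, a matrix protease, fell 9.83-fold, and LAMA5, a laminin chain, 2.34-fold. Without control replicate 1, 2 or 3, 7, 6 and 8 matrix genes fell, and the rise was not called.

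Targets and brakes of RAS-MAPK signalling showed 9 falls and 3 rises among 22 tested of 30 (median -0.76), with 5, 5 and 8 falls and no rise without control replicate 1, 2 or 3. FOSL2, an AP-1 subunit, was at 94.5, 90.3 and 82.5 CPM and at 25.8, 38.7 and 28.9 CPM (-1.52, SE 0.16, edgeR adjusted p = 0.00103). ETV5, an ETS factor switched on by this pathway, was at 59.0, 64.0 and 55.4 CPM and at 14.2, 22.0 and 4.42 CPM (-2.12, SE 0.41, adjusted p = 0.00878). SPRED1, which restrains RAS, was at 17.2, 16.1 and 17.8 CPM and at 7.18, 7.78 and 2.98 CPM (-1.49, SE 0.30, adjusted p = 0.00911). Both factors and brakes were thus lower, while SPRY2, another brake, was at 41.3 to 45.6 CPM and at 41.3, 35.1 and 51.8 CPM and was not called. MYC, a target of many growth signals, was at 560.3 to 678 CPM and at 677, 542 and 368 CPM, also with no call.

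Among the fusion genes, the proteins of the fusion complex and the corepressors that bind ETO, 10 of 24 tested fell and none rose (median -0.52), and 2 of the 10 are RUNX1T1 and RUNX1 themselves. TBL1X, a subunit of the NCOR complex, was at 58.3, 56.7 and 51.4 CPM and at 32.9, 29.3 and 23.0 CPM (-0.96, SE 0.17, edgeR adjusted p = 0.00575). SIN3A, a scaffold for histone deacetylases, was at 279.7, 301 and 302 CPM and at 185, 200.5 and 170.3 CPM (-0.67, SE 0.13, adjusted p = 0.00756). HDAC2 fell 1.65-fold (adjusted p = 0.00981, and 0.0509 without control replicate 3), and NCOR1, the corepressor that ETO binds, 1.56-fold (adjusted p = 0.0102, lost without control replicate 1 or 2 at 0.0507 and 0.0529). Without control replicate 1, 2 or 3 the list had 6, 5 and 7 falls. HDAC1, by comparison, was at 215 to 222 CPM and at 190.2, 227 and 206 CPM, with no call. LYL1, a member of the complex, was at 143 to 172 CPM and at 262, 199.8 and 172 CPM and was not called.

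Of 22 tested of 28 genes described in t(8;21) blasts 8 fell and 2 rose (median -0.42), with 6, 4 and 7 falls without control replicate 1, 2 or 3. PTK2, the focal adhesion kinase, was at 175, 176 and 172 CPM and at 83.4, 86.8 and 73.8 CPM (-1.10, SE 0.12, edgeR adjusted p = 0.00103). TRH, the precursor of thyrotropin-releasing hormone, was at 463, 464 and 464 CPM and at 178, 137 and 201 CPM (-1.43, SE 0.23, adjusted p = 0.00422). TRH was also low with LYL1 knockdown, at 80.5 to 160.2 CPM, and the difference between the knockdowns was not called (adjusted p = 0.167). JUP (plakoglobin) was at 609, 596 and 498 CPM and at 294, 271 and 129 CPM (-1.29, SE 0.26, adjusted p = 0.00838). IGFBP7, which binds growth factors, rose 6.06-fold (adjusted p = 0.00878), from 16.9 to 18.8 CPM in the controls to 125, 42.6 and 155 CPM.

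Most cell-cycle genes were not called, as was so over all genes tested. Of 48 mitosis genes tested 14 fell and none rose (median -0.28), a larger share of falls than the 10.4% over all genes. Of 43 DNA replication genes 6 fell and 1 rose (median -0.35), nearer to that share. INCENP, of the chromosomal passenger complex, was at 164, 161 and 149 CPM and at 69.4, 101 and 63.9 CPM (-1.01, SE 0.18, edgeR adjusted p = 0.00564). UHRF1, which brings DNA methylation to new strands, was at 118, 126 and 148 CPM and at 73.1, 54.0 and 30.9 CPM (-1.31, SE 0.25, adjusted p = 0.00714), and DNMT1, its partner methyltransferase, at 512, 494 and 492 CPM and at 289.7, 316 and 187 CPM (-0.92, SE 0.18, adjusted p = 0.00838). MCM7, a subunit of the replication helicase, was at 611 to 654 CPM and at 590.1, 665 and 407 CPM, with no call. Without AE knockdown replicate 2, falls over all genes went from 1530 to 1932, and mitosis and replication falls numbered 25 and 19. They were 3 and 3 without control replicate 1, 3 and 3 without control replicate 2, and 2 and 3 without control replicate 3. With AE knockdown replicate 1 left out, there were 7 mitosis falls.

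Regulators of entry into the cycle were lower in 5 and higher in 2 of 22 tested (median -0.32), and inhibitors of the cycle fell as well as a cyclin. For 2 of the 5 falls, fewer than 3 AE libraries reached the filter's level. CDKN1C (p57), an inhibitor of CDKs that keeps stem cells quiescent, had 85 counts over the controls and 2 over the AE libraries, a ratio of 43.7 (95% exact interval 11.7 to 367, edgeR adjusted p = 0.00234). CDKN1A (p21) was at 1.74, 2.45 and 1.55 CPM and at 0.0715, 0.493 and 0 CPM (-3.20, SE 0.76, adjusted p = 0.0161, and 0.0632 without control replicate 2). RB1 fell 1.51-fold (adjusted p = 0.0112, and 0.0577 without control replicate 2). CCND2, cyclin D2, was at 118, 118 and 119 CPM and at 52.8, 77.5 and 36.6 CPM (-1.09, SE 0.23, adjusted p = 0.00956). The log2 change of CDKN1A was -5.39 without AE knockdown replicate 2 and -2.75 without replicate 3. Without AE knockdown replicate 2, 9 regulators of entry fell. Without control replicate 1, 2 or 3, 4, 2 and 5 fell and none rose. Of 22 p53 targets tested 6 fell, CDKN1A among them, and 2 rose, FAS (3.36-fold, adjusted p = 0.00531) and BTG2 (6.39-fold, adjusted p = 0.0102, lost without control replicate 1 or 3 at 0.055 and 0.0537). The p53 list had 1, 0 and 1 falls without control replicate 1, 2 or 3, and 2 without AE knockdown replicate 1.

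Of 27 Polycomb and trithorax genes tested 7 fell and none rose (median -0.30), and of 17 genes of DNA methylation and its removal 5 fell and 2 rose (median -0.16). KMT2A (MLL), which keeps HOX genes on, was at 119.7, 119.9 and 121 CPM and at 69.3, 71.6 and 51.2 CPM (-0.91, SE 0.14, edgeR adjusted p = 0.0039). MEN1, its cofactor, was at 101, 97.7 and 94.8 CPM and at 72.0, 55.0 and 51.8 CPM (-0.71, SE 0.15, adjusted p = 0.0105). TET1, an enzyme that removes DNA methylation, fell 1.90-fold (adjusted p = 0.00878), and TET2 was at 71.2 to 80.4 CPM and at 82.7, 82.4 and 151 CPM with no call. Of 27 HOX and TALE genes 19 had no count in any of the 6 libraries, and the 1 tested, MEIS2, fell 1.69-fold (adjusted p = 0.0234, lost without any 1 control at 0.0654 to 0.0809). Without any 1 control each of the 2 modification lists had 3 falls and no rise, and without AE knockdown replicate 3 the Polycomb and trithorax list had 4 falls.

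Of 26 glycolysis and hypoxia genes tested 5 fell and 1 rose (median -0.11), and without control replicate 1, 2 or 3 there were 3, 3 and 3 falls, and 9 without AE knockdown replicate 2. SLC2A3, the glucose transporter GLUT3, was at 89.0, 98.6 and 94.2 CPM and at 7.50, 34.8 and 11.5 CPM (-2.38, SE 0.44, edgeR adjusted p = 0.00756). Over the 6 fits that left out 1 control or AE library, its log2 change ran from -3.31 (without AE knockdown replicate 2) to -2.02. PFKP, a phosphofructokinase, fell 1.89-fold (adjusted p = 0.0101). SLC2A3 and PFKP act at uptake and at the committed step, as HK1 does at the start. The enzyme between HK1 and PFKP, GPI, was the rise of the list. It was at 340.1, 334 and 294 CPM in control libraries and at 548, 563 and 461 CPM with AE knockdown. Its edgeR adjusted p was 0.0124, and 0.055 and 0.0642 without control replicate 2 or 3. GAPDH, further down, was at 2473 to 2983 CPM and at 2764, 2959 and 2871 CPM, with no call. Of 28 genes of serine, one-carbon and amino acid supply 10 fell and none rose (median -0.81), among them PHGDH (2.21-fold, adjusted p = 0.0261) and the amino acid transporter SLC7A5 (2.93-fold, adjusted p = 0.0231). None of the 10 was called without any 1 control, and the list had 6 falls without AE knockdown replicate 1 and 18 without replicate 2. Only 1 of the 10 was also called lower against LYL1 knockdown. In the LYL1 knockdown libraries PHGDH was at 112 to 227 CPM and SLC7A5 at 148 to 305 CPM. The difference between the knockdowns was not called for either (edgeR adjusted p = 0.283 and 0.0857). ATF4, the factor that drives these genes, was at 406 to 451 CPM and at 292, 369 and 234 CPM (adjusted p = 0.0927).

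Immune and survival lists were read next. Of 25 interferon-stimulated genes tested 5 rose and 1 fell, and the fall, IFITM3, a membrane protein that blocks virus entry, was the one that held in each leave-out fit. IFITM3 was at 52.8, 54.6 and 43.4 CPM and at 21.3, 20.1 and 17.3 CPM (-1.36, SE 0.15, edgeR adjusted p = 0.00111). None of the 5 rises was called without any 1 control. Of 14 MHC class II genes 3 were tested and 10 had no count in any of the 6 libraries, and CD74, the invariant chain, rose 2.48-fold (adjusted p = 0.0234, lost without any 1 control at 0.069 to 0.0878). Of 17 BCL2 family genes 3 rose and 2 fell, and BCL2L1, which protects from cell death, fell 1.72-fold (adjusted p = 0.0109, lost without control replicate 1 or 2 at 0.0552 and 0.0574). Without control replicate 1, 2 or 3 this family had 1, 1 and 0 rises. BCL2 was at 57.6 to 67.0 CPM and at 94.8, 44.7 and 57.1 CPM, with no call.

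**Figure D4:**
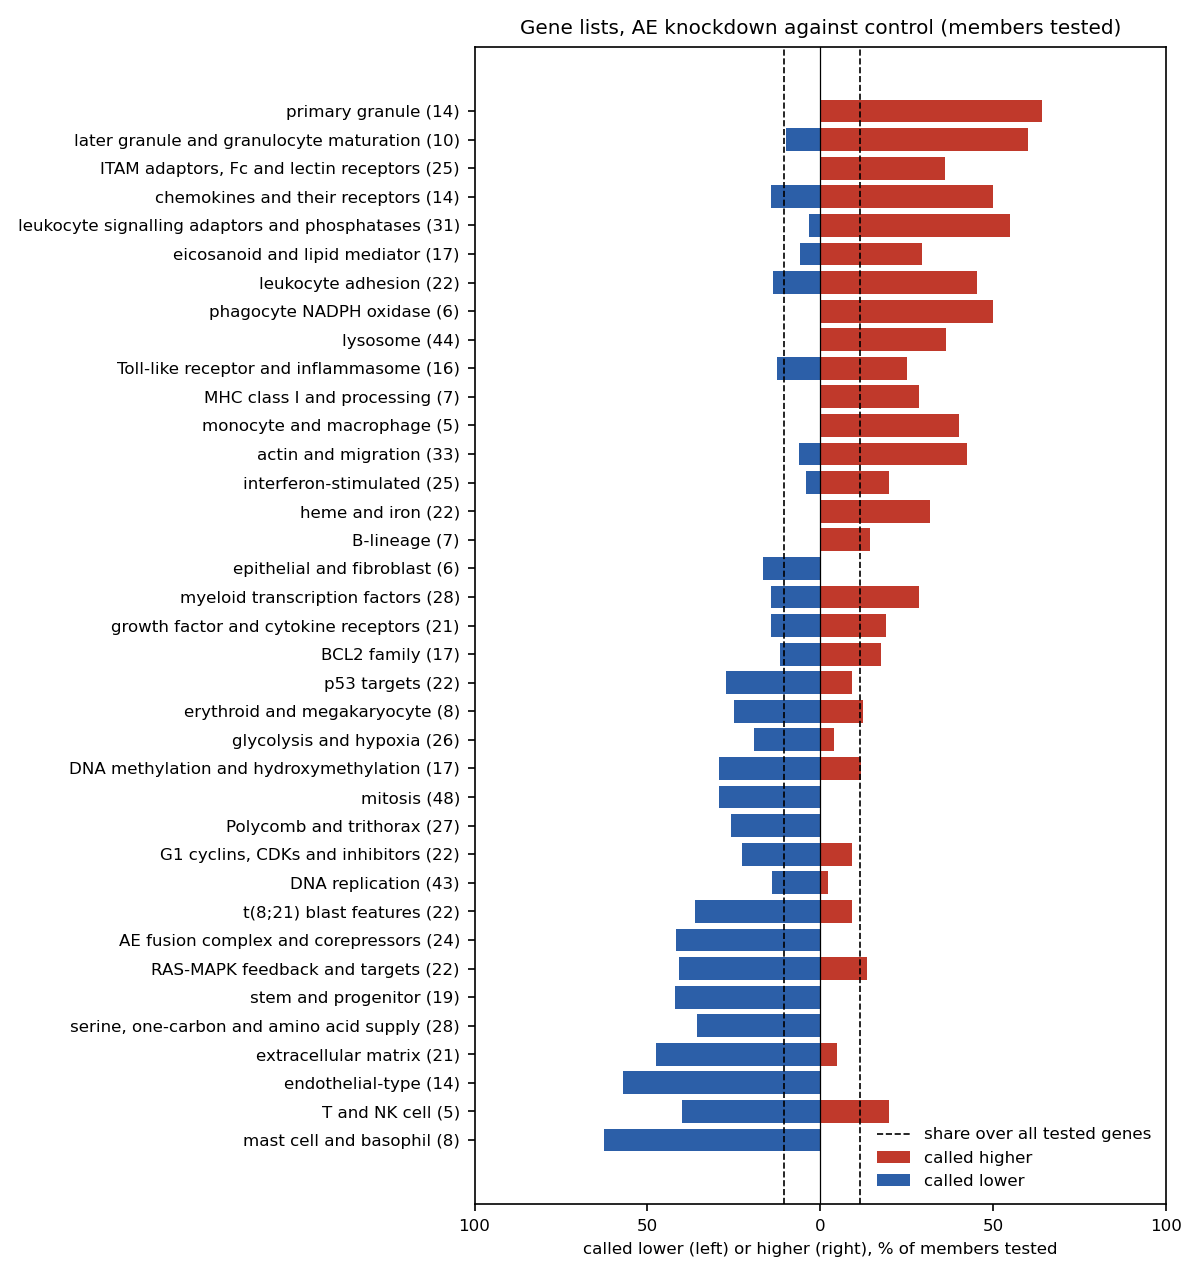
Share of tested members called higher (right, red) or lower (left, blue), in %, for each gene list with at least 5 members tested, ordered by median log2 fold change. Dashed lines are the shares over all genes tested, 11.4% and 10.4%, and the number tested is in parentheses.

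Markers of other lineages were summed. T and NK cell markers summed to 7.36 to 9.45 CPM in the controls and to 7.72, 3.98 and 23.7 CPM with AE knockdown, with 5 of 20 tested. NKG7, a granule protein of killer cells, rose from 0.126 to 0.414 CPM to 5.04, 1.58 and 20.8 CPM (edgeR adjusted p = 0.00939) while CD3D, a chain of the T cell receptor complex, fell from 3.4 to 5.38 CPM to 0.250, 0.493 and 0.625 CPM (adjusted p = 0.00405). Of 18 B-lineage genes 7 were tested and 1 rose, BANK1, a scaffold of B cell signalling, from 0.545 to 0.866 CPM to 7.93, 5.32 and 8.89 CPM (adjusted p = 0.0021). The B-lineage sum was 122 to 135 CPM and 305, 92.2 and 73.4 CPM, of which IGLL1 was the most abundant. Epithelial and fibroblast markers summed to 15.3 to 16.8 CPM and 10.7 to 11.8 CPM, with 7 of 18 at 0 in all 6 libraries. Of 30 erythroid and megakaryocyte genes 8 were tested and 11 had no count, and the list summed to 888 to 931 CPM and to 727, 687 and 732 CPM. With AE knockdown replicate 3 left out, the log2 change of NKG7 was 3.60. The part of these genes in the other results was not tested.

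Of 18 mast cell and basophil genes 8 were tested, and 5 fell and none rose (median -1.22), with 4, 4 and 5 without control replicate 1, 2 or 3. For 2 of the 5 falls, fewer than 3 AE libraries reached the filter's level. The tryptase TPSB2 was at 6.19, 5.08 and 4.53 CPM and at 0.464, 0.458 and 0.673 CPM (-3.33, SE 0.33, edgeR adjusted p = 8e-04). TPSAB1 fell 4.58-fold (adjusted p = 0.00386), and TPSD1 had 42, 28 and 29 counts in the controls and 1, 2 and 1 with AE knockdown (adjusted p = 0.00236). These genes are near-identical copies, so the split of reads between them is uncertain.

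A switch was defined as at most 0.1 CPM in each library of a group and at least 1 CPM in each of the other. Only 4 genes met it: S100A8 and FGR were switched on and TPSD1 and RASGRF1 off. Genes named as long noncoding, antisense or divergent transcripts were called higher in 59 (11.7%) and lower in 16 (3.18%) of 503 tested, beside 11.4% and 10.4% over all genes (median log2 fold change 0.32). The share of rises is thus near that over all genes. MMP25-AS1 was at 37.9, 37.0 and 34.3 CPM and at 10.6, 13.7 and 14.7 CPM (-1.49, SE 0.25, edgeR adjusted p = 0.00506). LINC00996 was at 0.0809 to 0.113 CPM and at 1.57, 0.669 and 3.41 CPM (4.21, SE 0.71, adjusted p = 0.00386, and 3.50 without AE knockdown replicate 3). Their reads can be mixed with those of the opposite strand.

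The changes reached abundant transcripts. The 8 most abundant genes that rose at least 2-fold all encode ribosomal proteins, such as RPL19, at 1354, 1341 and 1239.9 CPM in control libraries and at 2215, 2262 and 3747 CPM (2.09-fold, edgeR adjusted p = 0.00816), and RPS14, at 726, 724 and 632 CPM and at 1353, 1535 and 2713 CPM (2.69-fold, adjusted p = 0.00628). Of the 8, RPL13A, RPS7 and RPL15 lost their call without any 1 control, RPL15 also without AE knockdown replicate 3 (adjusted p = 0.0761), and RPL37 without control replicate 2 or 3 (adjusted p = 0.053 and 0.059). Reads of these genes can be shared with processed copies. Among the 8 most abundant that fell at least 2-fold were chromatin and RNA-binding proteins. PTMA, a histone-binding protein, was at 4272, 4176 and 4072 CPM and at 2211, 2660.5 and 1298 CPM (2.03-fold, adjusted p = 0.0132, lost without any 1 control at 0.0501 to 0.0528), and HNRNPA2B1, a splicing factor, at 2483, 2561 and 3128 CPM and at 1474, 1531 and 956 CPM (2.06-fold, adjusted p = 0.00734).

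As a share of all counts, the genes called higher took 9.83% to 10.2% in the controls and 16.2%, 15.7% and 22.8% with AE knockdown. The genes called lower took 16.7% to 17% in the controls and 10.5%, 11.2% and 7.45%. Replicate 3 of the AE knockdown, with the lowest RUNX1T1, lay farthest from the controls in 1332 of the 1684 genes called higher and 1048 of the 1530 called lower. It did so in 8579 of all 14741 genes too. The full order of replicates 3, 1 and 2 from farthest to nearest held in 51.8% of the genes called higher, 38.3% of those called lower and 32.4% of all genes. The median log2 change of the genes called higher was 0.74, 0.63 and 1.16 in replicates 1, 2 and 3, and that of the genes called lower -0.72, -0.71 and -1.06. The share of counts in mitochondrial genes was 6.818% to 8.359% in the controls and 7.55%, 7.998% and 9.601% with AE knockdown, and its part in these differences was not tested.

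Changes also ran with transcript length, taken from GENCODE by symbol for 96.8% of tested genes. Genes were put into 5 groups of about equal size by length. In the group with the shortest transcripts, up to 1620 bases, 15.7% of genes were called higher and 3.57% lower, and in the group with the longest, from 5507 bases, 7.61% and 18.4%. Median log2 fold changes went from 0.25 to -0.12, and each AE library showed the trend, while each control set against the other two stayed between -0.03 and 0.01. A correction of each library for length and GC content, chosen after the data were seen, left 1596 genes higher and 1490 lower. Of 196 named genes that were called, 6 lost their call under it, RANBP2, IFITM2, BCL2L12, FTL, DNMT3A and PTGER2, each of which was also lost without any 1 control. Under the correction the endothelial list kept its 8 falls, mitosis falls went from 14 to 16, and Polycomb and trithorax falls from 7 to 5. Lysosomal calls went from 16 rises to 14 rises and 1 fall. Beyond such counts, the part of length in the other results was not tested.

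**Figure D5:**
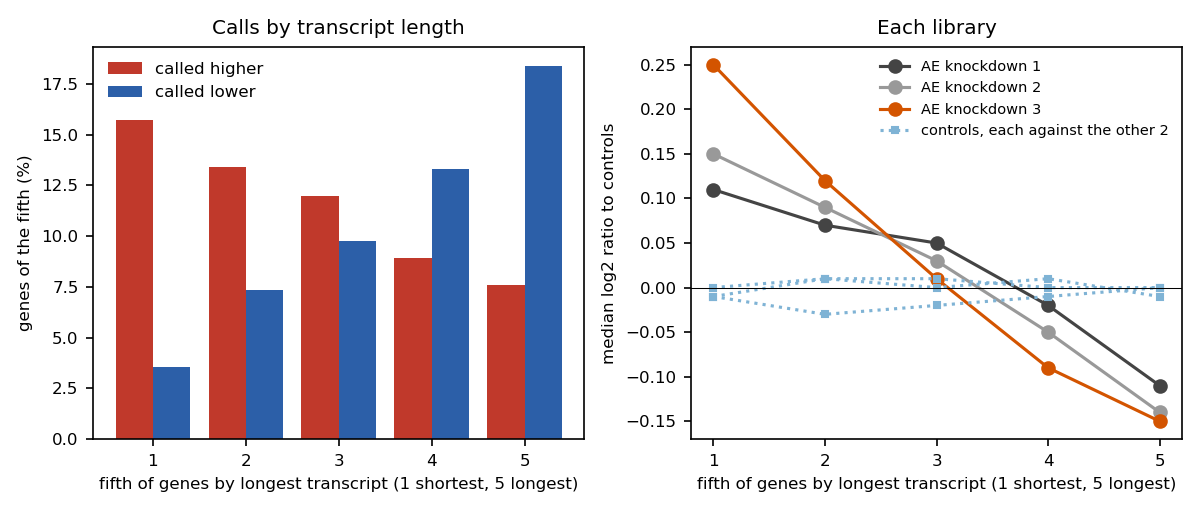
Left, share of genes called higher and lower with AE knockdown (vertical axis, %) in 5 groups by longest transcript (horizontal axis). Right, median log2 ratio to the control mean in the same groups for each AE library, and for each control against the other 2: the AE lines fall from 0.11 to 0.25 in the shortest group to -0.15 to -0.11 in the longest.

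AE knockdown was last set against LYL1 knockdown, which shares the AE libraries with the comparison above. Of all genes 20.4% were called, 1573 higher and 1430 lower with AE knockdown, and without LYL1 knockdown library 538, 540 or 542 there were 887, 1010 and 658 higher and 943, 1112 and 802 lower. Of the 3214 genes called against control, 2255 were called here in the same direction. Of the genes described, FLT1 (log2 difference -6.68, edgeR adjusted p = 0.000133) and SPI1 (0.99, adjusted p = 0.00867) differed from LYL1 knockdown much as from control. CXCL8, at 5.41 to 8.42 CPM with LYL1 knockdown, did not (-0.44, adjusted p = 0.222), nor did FAS, at 1.43 to 1.92 CPM (0.52, adjusted p = 0.189). For TIE1 the LYL1 knockdown libraries, at 0.729 to 1.25 CPM, lay between the controls and the AE libraries (-1.13, adjusted p = 0.044). CD33 did the same at 75.7 to 82.3 CPM (0.68, adjusted p = 0.0456).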

How the data were processed

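RNA sequencing gave 9 Kasumi-1 libraries, 3 a group by the labels. The deposited files hold raw read counts per gene symbol, 59648 genes each, with no normalisation. DESeq2 1.26.0, featureCounts 2.0.1, HISAT2 2.2.0, fastp 0.20.1, SAMtools 1.7 and build hg19 stand in the submitters' processing notes, without their roles. The annotation, the strand setting and the treatment of multi-mapped reads are not given in the sources used here. A suffix was removed from 5 gene names.

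Counts were analysed in R 4.3.3 with edgeR 4.0.16: filterByExpr by group, TMM scaling, and a robust quasi-likelihood test in 1 model over all 9 libraries, so that all share an estimate of spread. P-values were Benjamini-Hochberg adjusted over 14741 genes. Fold changes use a prior count of 0.125. 1 count was worth 0.0352 to 0.04984 CPM. The fit was tested on simulated data. Alternatives were other scalings and filters, DESeq2 1.42.0, limma-voom (limma 3.58.1), a replicate block, fits of 6 libraries, stricter calls, leaving out each library in turn and, added after seeing the data, a length and GC correction.

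Members and gene lists were chosen with earlier results of these data known. Genes are named by a rule: the fusion genes, the 10 smallest p and 8 most abundant 2-fold changes per direction without overlap, switched genes, up to 5 members of a list by p and up to 3 uncalled by level, and up to 4 noncoding genes per direction. ANPEP, CD34 and CD38 are cell type markers. Some genes the rule names are not reported here. Control libraries differed beyond counting noise, and none was treated as a duplicate. The mean chi-square per gene was 4.124 for control replicates 1 and 2, and 17.51 and 18.01 for the pairs with replicate 3. These values do not show whether the libraries came from separate cultures.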

Additional observations from a re-analysis of the deposited data

How the results depend on the processing

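None of the 196 named genes that were called changed sign under an alternative that tested it; the filter of 50 counts in 3 libraries tested 178 of them and DESeq2 gave an adjusted p for 194. Of the 196, 64, 76 and 71 lost their call without control replicate 1, 2 or 3, up to 15 without an AE knockdown library, 33 with no low-count filter, and up to 12 under the other tools, scalings and fits of 6 libraries. Against control, leaving out 1 library gave 423 to 2336 genes called higher (1684 with all) and 531 to 1932 lower (1530 with all). A fit of only the 6 libraries compared gave 1312 higher and 1267 lower. At an adjusted p below 0.01 there were 375 higher and 438 lower, and at a minimum of 2-fold 828 and 612. Against LYL1 knockdown, leaving out 1 library gave 658 to 2151 higher and 802 to 1856 lower, limma-voom with a trend per group 727 and 805, only the 6 libraries compared 470 and 471, an adjusted p below 0.01 371 and 413, and a minimum of 2-fold 754 and 601. Fits without a library also test with fewer samples. The cause of the other differences was not tested.

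Residuals of same-numbered control and AE libraries had correlations of 0.0565, -0.0249 and 0.0157. With 3 libraries a group, such values cannot show whether a number marks a shared culture or day. With the replicate block 744 genes were called higher and 885 lower, and 38 of the named genes lost their call.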
